A study of Arabidopsis with 14 samples.

Results

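Untreated seedlings of the lines labelled AtC3H3 OX and AtC3H26 OX were compared with each other. The 4 libraries were chosen by their labels from the 14 libraries of the series, with 2 libraries of AtC3H3 OX and 2 libraries of AtC3H26 OX, and no WT library entered the comparison. The study examined salt tolerance in plants overexpressing AtC3H3, and the series holds mRNA-Seq of both lines and of WT, untreated or with 150 mM NaCl. AtC3H3 OX denotes Arabidopsis plants of the Columbia background that carry the AtC3H3 reading frame under a modified cauliflower mosaic virus 35S promoter with an HA tag. The study selected several independent lines of this kind, and which of them was sequenced is not stated. AtC3H26 OX is labelled as the overexpressor of the paralog AtC3H26, and its construct is not described in the sources used here. All 4 libraries came from whole 10-day-old seedlings that received no NaCl and grew in cycles of 8 h light and 16 h dark, as did the untreated WT seedlings, of which the labels number 2 sets. Because RNA came from whole seedlings, fewer cells of a type and less RNA per cell cannot be told apart.

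AtC3H3 and AtC3H26 belong to the plant CCCH zinc-finger proteins that lack the tandem arrangement of zinc fingers, a family whose members bind RNA and in several cases cut it. Genes for calmodulin-like proteins, WRKY and ERF factors and C2H2 zinc-finger repressors are known in Arabidopsis for short bursts of transcription after touch, wounding or handling. Phosphate shortage is known to switch on another set of genes, directed by the PHR1 factors and held back by SPX proteins when phosphate is plentiful, whose products take up phosphate, release it from organic compounds and replace phospholipids with lipids that contain none.

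Levels are given as FPKM, a fragment count divided by the length of the transcript and by the reads of the library, and differences as AtC3H3 OX minus AtC3H26 OX on log2(FPKM + 1), a scale on which differences of genes near 1 FPKM are smaller than their ratios. The FPKM of a library summed to between 665440 and 689300 in these 4 libraries. Read counts are not among the values used here, so depth is known only in relative terms. With replicate 1 of AtC3H26 OX set to 1, the relative depth was 1.16 and 1.43 in AtC3H3 OX and 0.850 in the other AtC3H26 OX library. Replicates of a line lay close together: at levels from 20 up to 40 FPKM the robust spread of their log2 differences was 0.0827 in AtC3H3 OX and 0.106 in AtC3H26 OX. The labels and methods do not say whether both lines were sown or harvested together, so a difference between lines and one between batches of seedlings cannot be told apart. The p-values measure only the spread between these samples.

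The gene named in each label was not higher in its own line. AtC3H3 (AT1G04990, chromosome 1), whose RefSeq gene overlaps AT1G04985, was measured at 4.2 and 4.86 FPKM in the AtC3H3 OX libraries, against 5.75 and 5.99 FPKM in the AtC3H26 OX libraries. AtC3H26 (AT2G32930, chromosome 2, also named ZFN2) had 3.46 and 3.05 FPKM in the AtC3H3 OX libraries, against 2.51 and 2.34 FPKM in the AtC3H26 OX libraries. Among the untreated libraries, WT included, each gene was lowest in the libraries that carry its own name. The lines did not overlap for either gene, as for 5681 higher and 5213 lower genes of all 19744 tested. The differences did not pass the test, with log2 -0.31 (SE 0.10, adjusted p = 0.13) for AtC3H3 and 0.31 (SE 0.12, adjusted p = 0.18) for AtC3H26 (limma). With NaCl the same directions passed it. AtC3H3 then had 14.8 and 13.5 FPKM in AtC3H3 OX, against 20.9 and 23.9 FPKM in AtC3H26 OX (log2 -0.62, adjusted p = 0.026, limma). AtC3H26 had 7.44 and 8.23 FPKM in AtC3H3 OX, against 5.11 and 4.39 FPKM in AtC3H26 OX with NaCl (log2 0.62, adjusted p = 0.040, limma). The study had selected its AtC3H3 OX lines as overexpressors by qRT-PCR and semi-qRT-PCR. Whether the labels of the lines were exchanged, or whether these FPKM leave out reads of the transgenes, was not tested. Other reasons were not tested either. With exchanged labels every signed difference given here would turn round. The lines are therefore called by their labels throughout, AtC3H3 OX and AtC3H26 OX standing for the libraries so labelled, and no direction below is tied to the level of either gene. None of the 10 measured genes of the CCCH subfamily that holds both paralogs passed the test, and their differences ranged from -0.31 to 0.31 on the log2 scale. Over all genes, 8.86% passed.

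Of 37762 genes named in the files, 19744 reached 1 FPKM in 2 or more of these libraries and were tested. AtC3H3 OX had 1120 genes (5.67%) above and 630 genes (3.19%) below AtC3H26 OX at an adjusted p under 0.05 (limma, 2 libraries against 2). With quantile normalization of the libraries, 895 genes were higher and 792 were lower. Most of these differences were small: 84.2% of the called genes lay within 1 log2 unit of 0, and the median size over called genes was 0.48 log2 units. More than 2-fold, 166 genes (0.841%) were higher and 110 genes (0.557%) were lower. With an AtC3H3 OX library left out, the spread in the fit came from the AtC3H26 OX pair alone, and far fewer genes were called. Without replicate 1 of AtC3H3 OX, 195 genes were higher and 134 were lower, and without replicate 2, 201 were higher and 140 were lower. Of the tested genes, 139 passed the filter only through AtC3H3 OX and 178 only through AtC3H26 OX, and 42 and 53 of these were called.

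**Figure D1:**
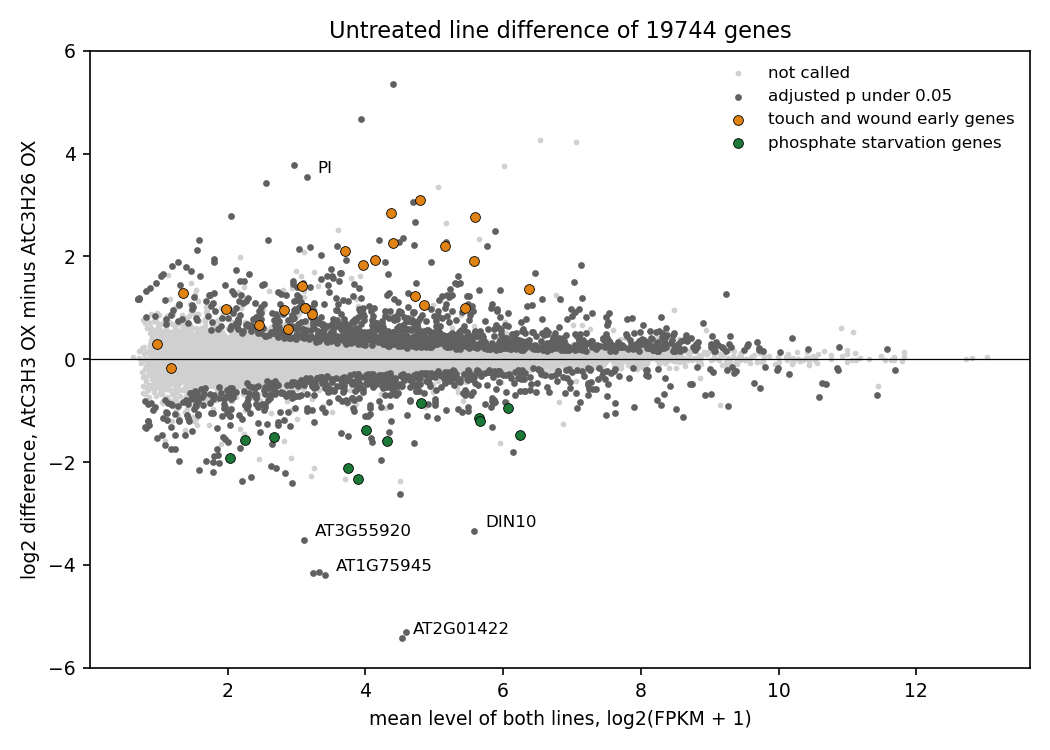
Difference between the untreated lines (y axis, log2, AtC3H3 OX minus AtC3H26 OX) against the mean level of both lines (x axis, log2(FPKM + 1)) for 19744 genes, each point being 1 gene and dark points having an adjusted p under 0.05 in limma. The phosphate starvation genes lie between -2.33 and -0.84, most touch and wound genes lie above 0, and 2 plastid tRNA genes lie beyond the y axis.

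Touch and wound early genes were higher in AtC3H3 OX, with most of the list past the test. Of 24 listed genes, 23 were tested, 21 were higher, none was lower, and 2 did not pass, where 5.67% of all tested genes were higher and 3.19% lower. The median log2 difference was 1.29 over the list and 0.004 over all tested genes. WRKY46 and ZAT11 had passed the filter only through AtC3H3 OX, and without them 20 of 21 were higher. The exceptions were the drought and cold factor CBF3, at log2 -0.17 (adjusted p = 0.55, limma), and ZAT11. Without either AtC3H3 OX library, 14 of 23 remained past the threshold in limma.

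Among the transcription factors, WRKY40 (AT1G80840), a WRKY repressor of defence genes, had 47.7 and 49.4 FPKM in AtC3H3 OX, against 5.42 and 4.23 FPKM in AtC3H26 OX. This was a 10.1-fold ratio of means and the largest log2 difference of the list, 3.09 (SE 0.11, adjusted p = 0.00016, limma). WRKY33 (AT2G38470), which activates camalexin synthesis, had 55.9 and 59.3 FPKM in AtC3H3 OX, against 11.5 and 12.1 FPKM in AtC3H26 OX, and rose by log2 2.2. The ethylene response factors of group IX rose together. ERF105 (AT5G51190) had 35.0 and 35.5 FPKM in AtC3H3 OX, against 3.82 and 4.33 FPKM in AtC3H26 OX (log2 2.84), and ERF6, ERF104 and ERF5 differed by log2 2.1, 1.94 and 1.83. The C2H2 repressor STZ (AT1G27730), known for salt responses, had 35.0 and 33.3 FPKM in AtC3H3 OX, against 6.48 and 6.09 FPKM in AtC3H26 OX (log2 2.27). SZF1 (AT3G55980), itself a CCCH zinc-finger protein, had 83.4 and 82.9 FPKM in AtC3H3 OX, against 12 and 10.8 FPKM in AtC3H26 OX (log2 2.76). In all of these genes the replicates of a line lay close together and the lines were far apart.

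The genes that gave the touch response its name followed the same direction. TCH4 (AT5G57560), a xyloglucan endotransglucosylase of the cell wall, had 74.1 and 74.3 FPKM in AtC3H3 OX, against 19.6 and 18.3 FPKM in AtC3H26 OX (log2 1.92). TCH3 (AT2G41100), a calmodulin-like protein, had 119.9 and 117 FPKM in AtC3H3 OX, against 45.5 and 45.6 FPKM in AtC3H26 OX (log2 1.36). TCH2, another calmodulin-like protein, differed by log2 1.00. Outside the list, several of the 15 genes with the largest increases had similar levels, as chosen by their size. DIC2 (AT4G24570), a mitochondrial dicarboxylate carrier, had 46.3 and 43.7 FPKM in AtC3H3 OX, against 4.41 and 4.60 FPKM in AtC3H26 OX (log2 3.06). ACS6 (AT4G11280), an ethylene synthesis enzyme, had 30.1 and 29.2 FPKM in AtC3H3 OX, against 5.42 and 4.82 FPKM in AtC3H26 OX (log2 2.33). AT1G07135 differed by log2 2.68. In the RefSeq annotation WRKY40, ERF105, WRKY33, TCH3 and TCH2 overlap a neighbouring gene, and whether counting used strand is not stated.

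These genes also varied widely between the sets of untreated WT seedlings. In WT set 2 against WT set 1, 20 of 22 tested touch and wound genes were lower, with a median log2 difference of -1.71 (limma), where 7.32% of all tested genes were lower and 2.81% higher. Like the other lists, this one was chosen with earlier results of these data known, so its counts are not independent of them. WRKY40 had 47.7 and 49.4 FPKM in AtC3H3 OX, whereas the libraries of WT set 2 had 1.07 and 1.27 FPKM and those of WT set 1 had 38.6 and 40.1 FPKM. Both AtC3H26 OX libraries lay below both libraries of WT set 1 in 22 of the 23 genes, and both AtC3H3 OX libraries lay above both libraries of WT set 2 in 22 of them. AtC3H3 OX was above every untreated WT library in 8 genes, and AtC3H26 OX was below every one in 2. The share of all tested genes with such positions beside WT was not counted, here or for the lists below. The part of handling or harvest in the line difference was not tested.

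**Figure D2:**
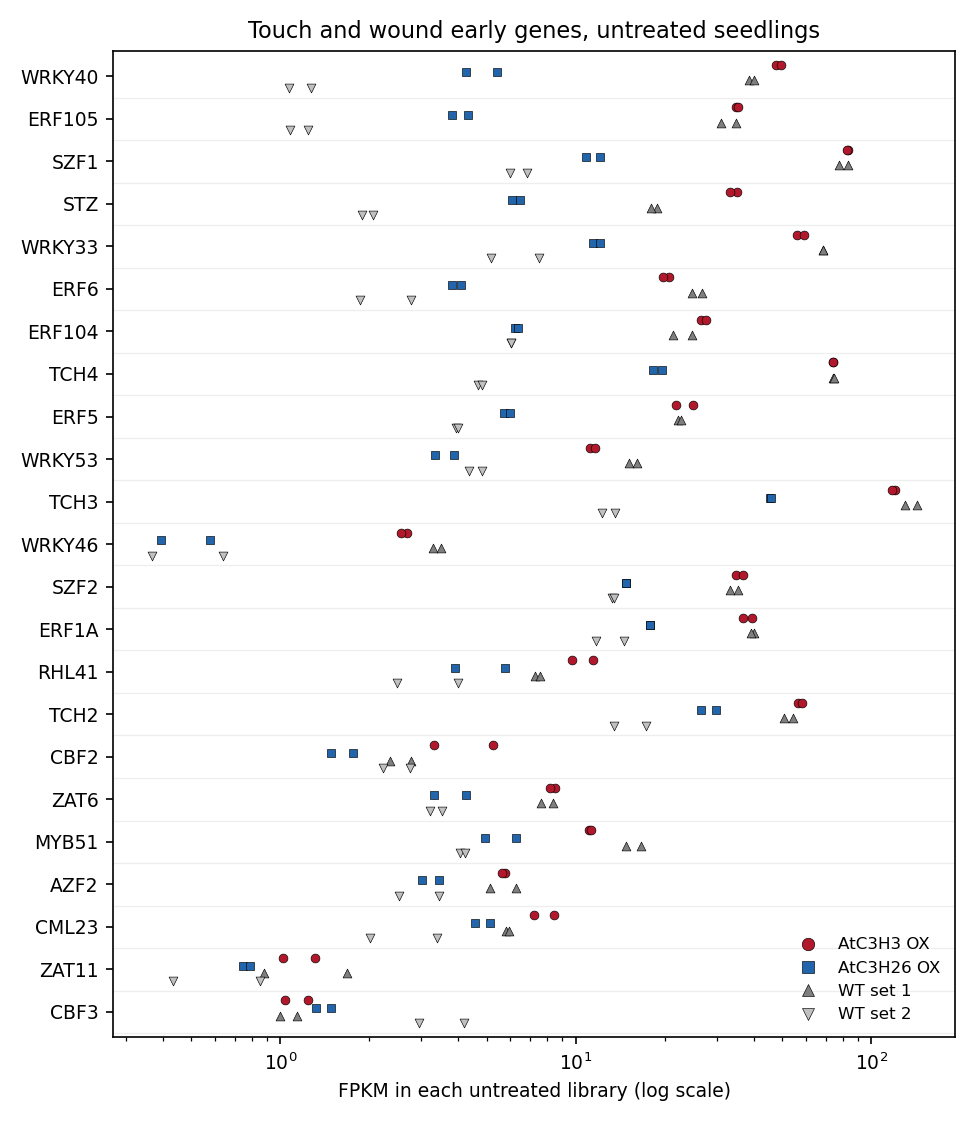
FPKM of each untreated library (x axis, log scale) for the 23 tested touch and wound early genes, ordered by the size of the line difference. The AtC3H3 OX points lie next to WT set 1 in most genes and the AtC3H26 OX points lie between WT set 2 and WT set 1 or next to set 2, as for WRKY40 with 47.7 and 49.4 FPKM in AtC3H3 OX against 5.42 and 4.23 FPKM in AtC3H26 OX.

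Phosphate starvation genes were lower in AtC3H3 OX than in AtC3H26 OX. All 12 listed genes were tested and 12 were lower, where 3.19% of all tested genes were lower. The median log2 difference of the list was -1.49, with a range from -2.33 to -0.84. SPX3 had passed the filter only through AtC3H26 OX, and the other 11 genes were lower as well. Without either AtC3H3 OX library 11 of 12 passed, and MGD3 was the gene that did not, with an adjusted p of up to 0.072.

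The riboregulator genes come first. IPS1 (AT3G09922) encodes a noncoding RNA that sequesters miR399, and it had 3.54 and 4.32 FPKM in AtC3H3 OX, against 25.2 and 22.3 FPKM in AtC3H26 OX. This was a 6.04-fold higher mean in AtC3H26 OX and a log2 difference of -2.33 (SE 0.11, adjusted p = 0.00035, limma). Its relative AT4 (AT5G03545) had 38.9 and 38.7 FPKM in AtC3H3 OX, against 119 and 102 FPKM in AtC3H26 OX (log2 -1.48). The SPX proteins, sensors that restrain the response, were lower in AtC3H3 OX too. SPX1 (AT5G20150) had 30.1 and 29.4 FPKM in AtC3H3 OX, against 68.0 and 72.0 FPKM in AtC3H26 OX (log2 -1.21). SPX3 (AT2G45130) had 0.660 and 0.759 FPKM in AtC3H3 OX, against 5.23 and 5.70 FPKM in AtC3H26 OX (log2 -1.92). In each of these genes the lines did not overlap, as in 5681 higher and 5213 lower genes of all 19744 tested.

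Phosphatases and transporters followed. PS2 (AT1G73010), a pyrophosphate-cleaving phosphatase, had 4.12 and 3.89 FPKM in AtC3H3 OX, against 19.7 and 21.8 FPKM in AtC3H26 OX (log2 -2.12). PAP17 (AT3G17790), a purple acid phosphatase, had 8.94 and 8.87 FPKM in AtC3H3 OX, against 28.9 and 28.8 FPKM in AtC3H26 OX (log2 -1.59). The uptake transporter PHT1;4 (AT2G38940) had 7.89 and 7.99 FPKM in AtC3H3 OX, against 22.5 and 22.2 FPKM in AtC3H26 OX (log2 -1.38). Its homologue PHT1;1 differed least in the list, by log2 -0.84, and its reads may be shared with close copies of the gene.

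The enzymes that replace phospholipids showed the same direction. SQD1 and SQD2 make sulfolipid, and SQD2 (AT5G01220) had 30.7 and 29.8 FPKM in AtC3H3 OX, against 68.5 and 67.0 FPKM in AtC3H26 OX (log2 -1.14), while SQD1 differed by log2 -0.95. MGD2 (AT5G20410), a galactolipid synthase, had 2.31 and 2.29 FPKM in AtC3H3 OX, against 7.5 and 9.34 FPKM in AtC3H26 OX (log2 -1.51). MGD3 (AT2G11810) differed by log2 -1.57. Among the 15 genes with the largest decreases, which were chosen by size, PEPC1 (AT1G17710), a phosphatase of phosphocholine and phosphoethanolamine, had 1.45 and 1.44 FPKM in AtC3H3 OX, against 11.8 and 12 FPKM in AtC3H26 OX (log2 -2.40). AT5G20790 had 6.66 and 4.18 FPKM in AtC3H3 OX, against 40.8 and 35.1 FPKM in AtC3H26 OX (log2 -2.63).

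Unlike the touch genes, the phosphate genes placed AtC3H26 OX apart from WT as well as from AtC3H3 OX. Both AtC3H26 OX libraries were above every untreated WT library in 12 of 12 genes. The AtC3H3 OX libraries were below every untreated WT library in 5 genes and above every one in 1. The sets of WT differed in 1 of 11 tested genes, with a median log2 difference of -0.07 between set 2 and set 1. These positions are descriptions without a test, and the share of all tested genes with such positions was not counted.

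**Figure D3:**
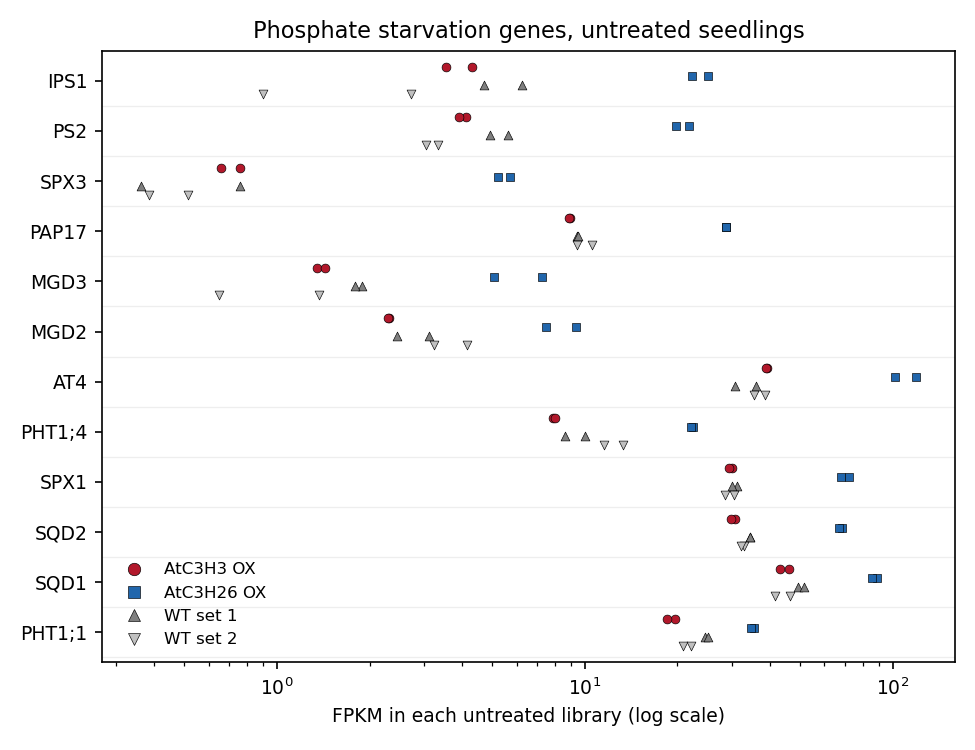
FPKM of each untreated library (x axis, log scale) for the 12 phosphate starvation genes, ordered by the size of the line difference. The AtC3H26 OX points stand to the right of AtC3H3 OX and of both WT sets in all 12 genes, as for PAP17 with 8.94 and 8.87 FPKM in AtC3H3 OX against 28.9 and 28.8 FPKM in AtC3H26 OX.

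The untreated differences were set beside the difference of the same lines with 150 mM NaCl, which shares no library with them. The AtC3H3 OX libraries with NaCl are pools of several exposure times, so these values do not describe a single time in salt. With NaCl, 753 genes (3.82%) were higher and 340 (1.73%) were lower in AtC3H3 OX, of 19693 tested (limma). These counts fell to very few genes with either AtC3H3 OX library with NaCl left out, where the spread in the fit came from the AtC3H26 OX pair alone. Without replicate 2 of AtC3H26 OX, 271 were higher and 107 lower, and without its replicate 1, 489 and 149. The numbers of genes called in both treatments rest on the same calls. Of 1690 genes called untreated and tested with NaCl, 66.2% had the same sign there, against 53.5% of all 18948 genes tested in both. In the same direction, 185 genes (0.976%) were called higher and 72 (0.38%) lower in both treatments, and 57 genes called untreated were called in the opposite direction. The difference between the treatments was tested as an interaction, which 7.44% of all genes passed (3.79% positive and 3.65% negative).

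The touch and phosphate genes tested with NaCl were mostly closer between lines there. Of all genes tested with NaCl, 3.82% were higher and 1.73% lower. Of 24 touch and wound genes tested with NaCl, 7 were higher, with a median log2 difference of 0.27, and the interaction was positive and called in 17 of 24 and negative and called for CBF3. WRKY40 had 68.3 and 66.7 FPKM in AtC3H3 OX, against 49.2 and 48.0 FPKM in AtC3H26 OX with NaCl. Of 10 phosphate genes tested with NaCl, 3 were lower, with a median of -0.28, and PS2 was among the 3 at log2 -1.38. The interaction was called in 10 of 12, PS2 and MGD3 excepted. SPX3 and MGD3 were under 1 FPKM with NaCl and not tested there, so the median leaves them out. At such levels the interaction of SPX3 does not show a smaller ratio between lines. MGD3 had 0.128 and 0.0783 FPKM in AtC3H3 OX, against 0.524 and 0.850 FPKM in AtC3H26 OX with NaCl. AT4 had 46.3 and 40.2 FPKM in AtC3H3 OX, against 45.7 and 40.6 FPKM in AtC3H26 OX with NaCl, and these libraries overlapped.

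**Figure D4:**
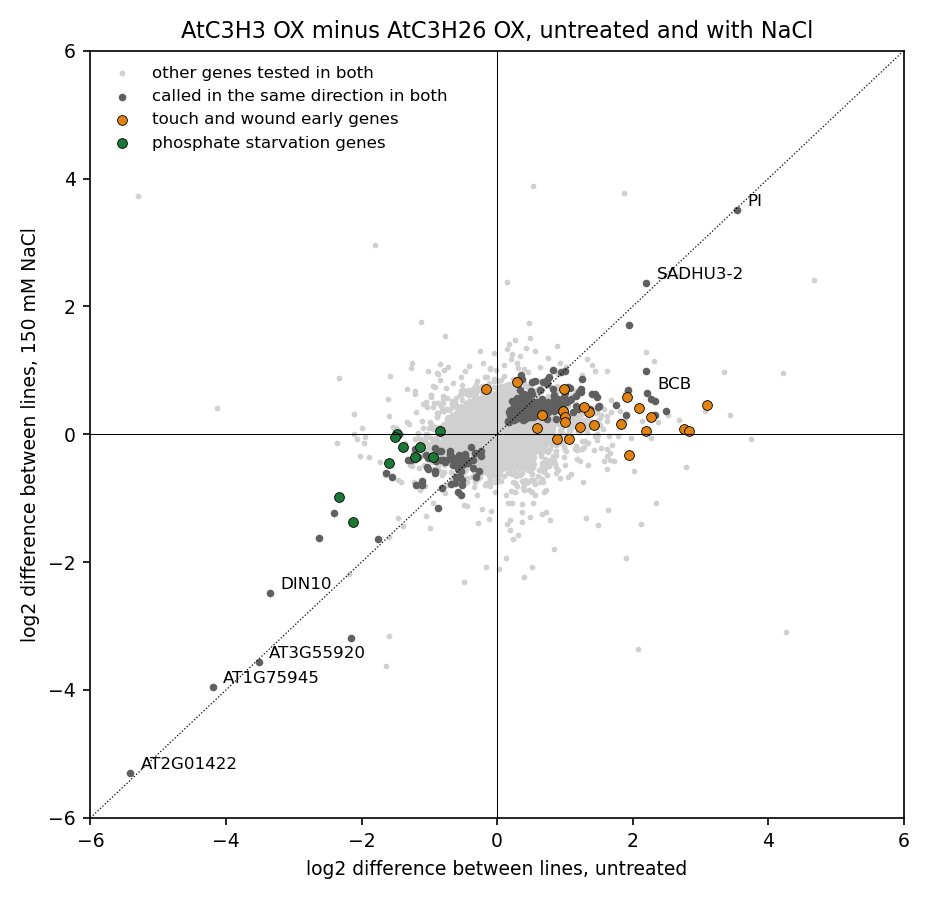
Log2 difference between the lines (AtC3H3 OX minus AtC3H26 OX) untreated (x axis) and with 150 mM NaCl (y axis) for 18948 genes tested in both, each point being 1 gene. PI, AT2G01422, AT1G75945 and AT3G55920 lie near the dotted line of equal differences, the touch and phosphate genes lie nearer to the horizontal axis, and 2 genes lie beyond the axes.

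A few genes differed by nearly the same large amount in both treatments. PI (AT5G20240, chromosome 5) encodes the MADS-box factor PISTILLATA of petals and stamens. It had 15.4 and 15.5 FPKM in AtC3H3 OX, against 0.321 and 0.505 FPKM in AtC3H26 OX, a log2 difference of 3.54 (SE 0.11, adjusted p = 0.00013, limma) and of 3.50 with NaCl. AtC3H3 OX thus held PI far above AtC3H26 OX, and the 4 untreated WT libraries had between 0.103 and 0.686 FPKM. PI had passed the filter only through AtC3H3 OX. Its partner AP3 and the floral genes AP1 and AG were below 0.5 FPKM in all 4 libraries of the lines. SEP3 (AT1G24260), the other floral gene tested, had 5.28 and 5.09 FPKM in AtC3H3 OX, against 2.52 and 3.35 FPKM in AtC3H26 OX (log2 0.66, adjusted p = 0.040, limma). Unlike PI, SEP3 in AtC3H3 OX lay near WT set 1, which had 5.24 and 5.50 FPKM, and WT set 2 had 2.21 and 1.77 FPKM. The SEP3 call was lost in 7 alternatives, with adjusted p up to 0.24 in limma without replicate 1 of AtC3H3 OX.

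A gene on either side of PI differed as well. DIN10 (AT5G20250), a raffinose synthase induced in the dark and 2 places from PI in the RefSeq order of genes, had 7.70 and 7.46 FPKM in AtC3H3 OX, against 85.9 and 86.9 FPKM in AtC3H26 OX. This was a 11.4-fold higher mean in AtC3H26 OX and a log2 difference of -3.35 (SE 0.05, adjusted p = 1.4e-05, limma), and the difference was -2.48 with NaCl. BCB (AT5G20230), a blue copper-binding protein 2 places to the other side, had 41.8 and 42.0 FPKM in AtC3H3 OX, against 7.97 and 8.47 FPKM in AtC3H26 OX (log2 2.22), and the difference was 0.65 with NaCl. DIN10 and BCB also differed between WT set 2 and WT set 1, by log2 -2.42 and -2.39 (limma), whereas PI was too low in WT to be tested. DIN10 had 29.0 and 32.6 FPKM in the libraries of WT set 2 and 170.5 and 168 FPKM in those of WT set 1, so both AtC3H3 OX libraries were below every untreated WT library. Farther out, in untreated seedlings, the genes at 3 to 5 places on either side either did not pass the test or were too low to be tested, and AT5G20290 at 6 places was higher by log2 0.25 (adjusted p = 0.013, limma). With NaCl, HHP1 at 4 places was higher by log2 0.37 (adjusted p = 0.026, limma). DIN10 overlaps AT5G20260, which was at or under 0.158 FPKM in the 4 libraries.

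**Figure D5:**
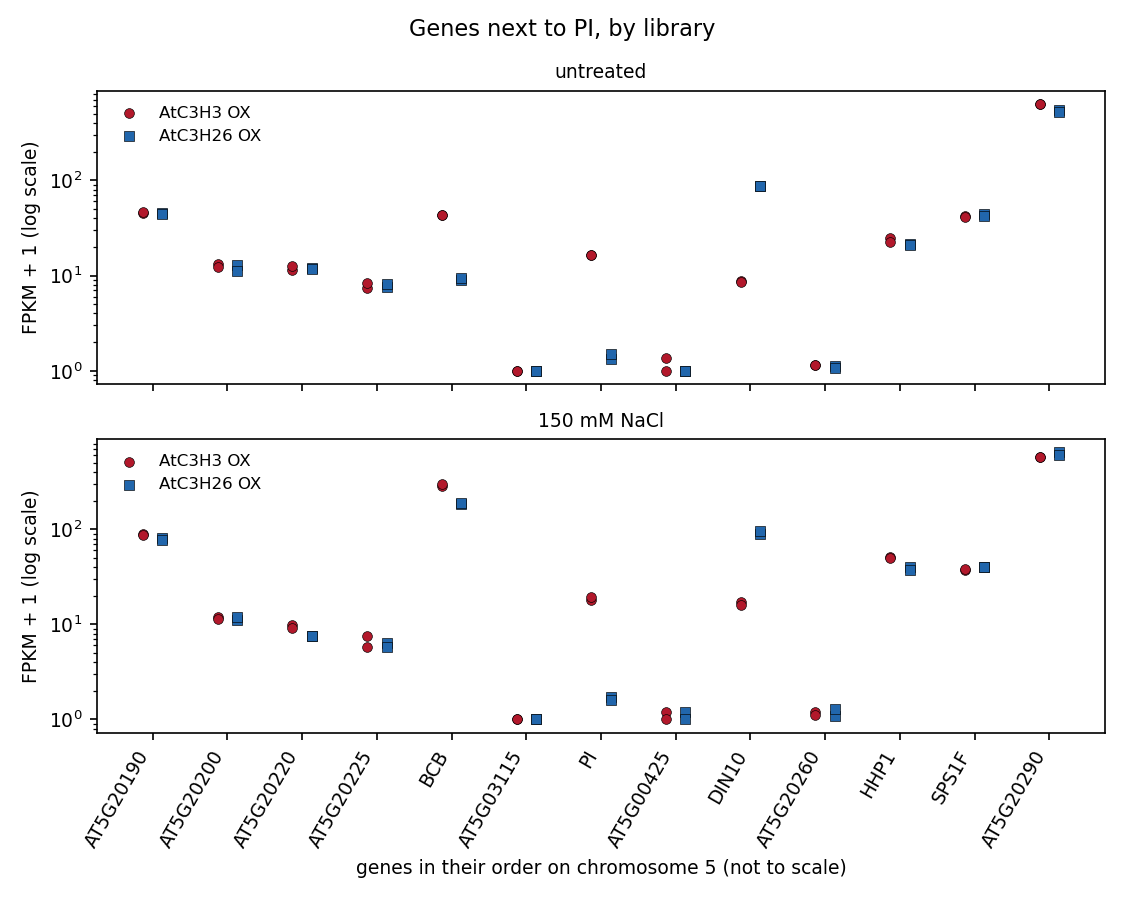
FPKM + 1 (y axis, log scale) of each library for PI and the 6 genes on each side in the order of the RefSeq annotation, untreated above and with 150 mM NaCl below. PI is high only in AtC3H3 OX in both treatments (15.4 and 15.5 FPKM against 0.321 and 0.505 FPKM untreated), DIN10 is low there in both, and the BCB values lie closer together with NaCl.

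Other genes were almost silent in AtC3H3 OX and present in AtC3H26 OX. AT2G01422, AT1G75945 and AT3G55920 had passed the filter only through AtC3H26 OX, as had AT5G35935 and AT4G03005 below. AT2G01422, a noncoding RNA gene, had 0 and 0.131 FPKM in AtC3H3 OX, against 43.9 and 44.8 FPKM in AtC3H26 OX, and 0 and 0.182 FPKM against 43.3 and 40.5 FPKM with NaCl. Its log2 difference was -5.41 (SE 0.10, adjusted p = 2e-05, limma), and the 4 untreated WT libraries had at most 0.790 FPKM. AT1G75945 had 0.177 and 0 FPKM in AtC3H3 OX, against 15.2 and 23.4 FPKM in AtC3H26 OX (log2 -4.2). AT3G55920, a protein-coding gene, had 0.279 and 0.516 FPKM in AtC3H3 OX, against 14.4 and 15.5 FPKM in AtC3H26 OX (log2 -3.52). The adjacent AT3G55910, which overlaps it in the annotation, was at 0 in both AtC3H3 OX libraries and had 0.857 and 0.756 FPKM in AtC3H26 OX. These genes stood apart in AtC3H26 OX, where their levels were above every untreated WT library.

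Further genes of this kind lay at lower levels. AT5G35935, a pseudogene, had 0.0910 and 0.0677 FPKM in AtC3H3 OX, against 2.58 and 2.70 FPKM in AtC3H26 OX (log2 -1.75, and -1.64 with NaCl). AT4G03005 had 0.106 and 0.0879 FPKM in AtC3H3 OX, against 4.73 and 3.13 FPKM in AtC3H26 OX (log2 -2.15), and it overlaps the noncoding gene AT4G06835, so that their reads cannot be told apart without knowing how strand was counted. In the other direction, SADHU3-2 (AT3G42658), a Sadhu retroposon with relatives elsewhere in the genome, had 18.5 and 18.8 FPKM in AtC3H3 OX, against 3.41 and 3.17 FPKM in AtC3H26 OX (log2 2.2, and 2.36 with NaCl). WT set 1 had 8.04 and 7.04 FPKM of SADHU3-2, and WT set 2 had 19.6 and 15.1 FPKM. AT4G39675 had 88.3 and 88.2 FPKM in AtC3H3 OX, against 19.8 and 17.3 FPKM in AtC3H26 OX (log2 2.2, and 0.99 with NaCl). WT set 1 had 82.7 and 85.6 FPKM of AT4G39675, and WT set 2 had 45.6 and 45.2 FPKM. AT4G23870 (log2 1.00) and the lipid transfer protein gene LTP3 (log2 1.04) were called higher in both treatments too. LTP3 lost its call without replicate 2 of AtC3H3 OX. For both genes, untreated AtC3H3 OX lay near WT set 1 and untreated AtC3H26 OX near WT set 2. AT4G23870 had 19.1 and 18.9 FPKM in WT set 1, against 9.23 and 8.29 FPKM in set 2. LTP3 had 10.5 and 9.77 FPKM in WT set 1, against 5.04 and 4.49 FPKM in set 2.

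Genes known from darkness and sugar starvation were mostly higher in AtC3H3 OX. Of 19 tested genes, 12 were higher and 2 were lower, where 5.67% of all tested genes were higher and 3.19% lower. The median log2 difference was 0.46. Without either AtC3H3 OX library, 7 were higher. BT2 (AT3G48360), a scaffold protein that responds to sugar and nitrogen, had 98.5 and 101 FPKM in AtC3H3 OX, against 17.0 and 16.6 FPKM in AtC3H26 OX (log2 2.50, SE 0.04, adjusted p = 2e-05, limma). ASN1 (AT3G47340), an asparagine synthetase, had 51.1 and 50.7 FPKM in AtC3H3 OX, against 21.5 and 21.4 FPKM in AtC3H26 OX (log2 1.21). SEN1 (AT4G35770) had 72.7 and 80.8 FPKM in AtC3H3 OX, against 34.8 and 36.5 FPKM in AtC3H26 OX (log2 1.08). The bZIP1 factor, the F-box gene KMD1 and the trehalose phosphate synthase homologues TPS8 and TPS11 differed by log2 1.08, 1.04, 0.87 and 0.85. The lower members were DIN10 and the glutamate dehydrogenase gene GDH2. This group also moved between the WT sets, with 13 of 18 genes lower in set 2 than in set 1 and a median of -0.67. Both AtC3H26 OX libraries were below both libraries of WT set 1 in 16 of 19 genes. With NaCl, 8 of 20 genes were higher and 2 were lower, where 3.82% of all tested genes were higher and 1.73% lower. The median with NaCl was 0.20.

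Of 16 tested markers of abscisic acid and salt stress, 8 were higher in AtC3H3 OX without NaCl and none was lower. The other 8 did not pass, and the median was 0.44, where 5.67% of all tested genes were higher and 3.19% lower. RAB18 (AT5G66400), a dehydrin, had 25.2 and 24.0 FPKM in AtC3H3 OX, against 12.3 and 12.4 FPKM in AtC3H26 OX (log2 0.94, SE 0.06, adjusted p = 0.00088, limma). P5CS1 (AT2G39800), the rate-limiting enzyme of proline synthesis, had 131 and 139 FPKM in AtC3H3 OX, against 85.3 and 87.7 FPKM in AtC3H26 OX (log2 0.64). The oil body protein gene RD20 differed by log2 0.90 and the cold-regulated COR15A by log2 0.73. This count was fragile: without either AtC3H3 OX library 2 genes remained past the threshold, and 3 did in the fit without an intensity trend, 4 with no filter on low values and 5 with replicates blocked by number. With NaCl, 13 of 18 genes were higher and none was lower, with a median of 0.50, where 3.82% of all tested genes were higher. RAB18 then had 172 and 188 FPKM in AtC3H3 OX, against 92.0 and 90.7 FPKM in AtC3H26 OX, a log2 difference of 0.97. In the untreated libraries, AtC3H26 OX was below every WT library in 15 of the 16 genes, and AtC3H3 OX was below every WT library in 10. Between the WT sets, 6 of 17 markers were higher in set 2 and none was lower, with a median of 0.063.

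Of 20 tested genes of the aliphatic branch of glucosinolate synthesis, which starts from methionine, 10 were lower in AtC3H3 OX and none was higher. The other 10 did not pass, and the median was -0.25, where 3.19% of all tested genes were lower and 5.67% higher. MAM3 (AT5G23020), a chain-elongating methylthioalkylmalate synthase, had 39.5 and 40.4 FPKM in AtC3H3 OX, against 55.7 and 58.7 FPKM in AtC3H26 OX (log2 -0.51, adjusted p = 0.0035, limma). The sulfotransferase gene SOT17 and the transporter gene BAT5 differed by log2 -0.51 and -0.47. In most of these genes the lines were nevertheless on the same side of WT. Both AtC3H26 OX libraries were above every untreated WT library in 20 of 20 genes, and both AtC3H3 OX libraries were in 17. The WT sets differed as well, with 11 of 20 aliphatic genes lower in set 2 than in set 1 and a median of -0.355. Of 13 tested genes of the indole branch, made from tryptophan, 9 were lower and 1 was higher. Between the WT sets, 3 of 13 indole genes were lower in set 2 and 2 were higher, with a median of -0.183. CYP79B2 (AT4G39950), which makes the indole aldoxime, had 21.5 and 19.99 FPKM in AtC3H3 OX, against 33.1 and 31.6 FPKM in AtC3H26 OX (log2 -0.62). CYP83B1 and the regulator MYB34 differed by log2 -0.47 and -0.54, and the wound-induced regulator MYB51 was higher by log2 0.89. MYB51 had 14.8 and 16.6 FPKM in WT set 1, against 4.05 and 4.22 FPKM in WT set 2. Far fewer genes of both branches were called with an AtC3H3 OX library left out, where the spread came from the AtC3H26 OX pair alone. The aliphatic median was then -0.277 without replicate 1 and -0.265 without replicate 2, and the indole median was -0.238 and -0.244. In the fit without an intensity trend 2 genes of each branch were lower.

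Of 20 tested genes of jasmonate synthesis and JAZ repressors, 8 were lower and 2 were higher, with a median of -0.21. Over all tested genes, 3.19% were lower and 5.67% higher. The WT sets differed in this list too, with 9 of 21 genes lower in set 2 than in set 1, none higher and a median of -0.415. LOX2 (AT3G45140), a plastid lipoxygenase, had 36.9 and 35.2 FPKM in AtC3H3 OX, against 56.8 and 55.7 FPKM in AtC3H26 OX (log2 -0.63), and the difference was -0.76 with NaCl. The allene oxide cyclase genes AOC1 and AOC3 and the repressor gene JAZ10 differed by log2 -0.87, -0.93 and -0.92. The wound-induced lipoxygenase gene LOX4 was higher by log2 1.05. It had 2.60 and 2.05 FPKM in AtC3H3 OX, against 0.626 and 0.577 FPKM in AtC3H26 OX. LOX4 had passed the filter only through AtC3H3 OX, and without it 1 of 19 genes was higher and 8 were lower. WT set 1 had 5.39 and 5.89 FPKM of LOX4, and WT set 2 had 0.427 and 0.337 FPKM. Without replicate 1 and without replicate 2 of AtC3H3 OX, 2 and 3 genes of the list were lower. Of 12 nitrate response genes tested, 7 were higher with a median of 0.18, led by the repressor gene LBD38 at log2 0.48, and none remained when either AtC3H3 OX library was left out. Between the WT sets, 8 of 12 of these genes were lower in set 2 than in set 1, with a median of -0.56, and both AtC3H26 OX libraries were below both libraries of WT set 1 in 12 of 12.

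The remaining lists are read against 5.67% higher and 3.19% lower over all tested genes. Of 17 clock genes, 1 was higher (RVE1, log2 0.50) and 1 was lower, and of 16 light-harvesting antenna genes 1 was higher and 3 were lower, with medians of -0.004 and -0.01. None of these clock or antenna calls remained without either AtC3H3 OX library. The lists for flavonoids (0 higher and 1 lower of 11), salicylate and defence (1 and 1 of 7), iron deficiency (1 and 0 of 5) and flowering with the FLC clade (1 and 0 of 9) held few calls. The lower salicylate and defence gene had passed the filter only through AtC3H26 OX, and without it 1 was higher and 0 lower of 6. Heat shock genes had 3 higher and none lower of 9, among them the factor gene HSFB2A at log2 1.26. The small heat shock protein gene HSP17.6A was another, with 3.88 and 2.33 FPKM in AtC3H3 OX against 0.242 and 0.0950 FPKM in AtC3H26 OX. HSP17.6A had passed the filter only through AtC3H3 OX, and without it 2 of 8 were higher. HSFB2A had 9.33 and 9.77 FPKM in WT set 1, against 2.84 and 3.35 FPKM in WT set 2. Without replicate 1 of AtC3H3 OX 1 of the 9 passed, and HSP17.6A had an adjusted p of 0.073 (limma), and without replicate 2, 2 passed. Cell wall extension genes went both ways, with 3 higher and 4 lower of 15, and XTH19 differed by log2 0.73. Without either AtC3H3 OX library 1 cell wall gene was higher and none was lower. WRKY70 (AT3G56400), a factor of salicylate responses, had 9.73 and 10.8 FPKM in AtC3H3 OX, against 4.02 and 2.26 FPKM in AtC3H26 OX (log2 1.47). Its call was lost without an intensity trend and without either AtC3H3 OX library, with adjusted p up to 0.13 (limma). Of 8 leaf markers and 8 root markers tested, 1 of each was lower and none was higher, the root marker being the nitrate transporter gene NRT1.5 at log2 -0.37, which lost its call without either AtC3H3 OX library (adjusted p up to 0.078, limma). Of the root markers, 7 of 8 had negative differences, with a median of -0.15. The summed level of the listed root markers was 202.8 and 202.1 FPKM in AtC3H3 OX, against 241.7 and 239.2 FPKM in AtC3H26 OX. Both AtC3H3 OX libraries were below every untreated WT library in 6 of 8. The part of root tissue in the other differences was not tested. The summed level of the leaf markers was 21253 and 21298 FPKM in AtC3H3 OX and 21744 and 21437 FPKM in AtC3H26 OX. No seed marker was tested, and their sum was at most 0.275 FPKM in any of the 4 libraries.

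The study listed genes that differed between AtC3H3 OX and WT with NaCl, and this choice used the NaCl libraries, so those lists are not independent evidence for a line difference with NaCl. Of 7 genes of its higher list tested here untreated, PI was higher and CYP79F1, a glucosinolate cytochrome P450, was lower, at log2 -0.36. The reference here was AtC3H26 OX, whereas the study's was WT. CYP79F1 had 33.2 and 34.2 FPKM in AtC3H3 OX, against 42.0 and 45.3 FPKM in AtC3H26 OX. Untreated WT libraries had 25.8 and 23.7 FPKM in set 1 and 11.5 and 13.1 FPKM in set 2, so both lines were above all of them. Of 6 genes of the study's lower list, DIN10 and FAMT-L (AT3G44870), a methyltransferase homologue, were lower. PI had passed the filter only through AtC3H3 OX, and FAMT-L only through AtC3H26 OX. Without them, 0 of 6 genes of the higher list were higher, and 1 of 5 genes of the lower list was lower. CYP79F1 lost its call without an intensity trend and without either AtC3H3 OX library, with adjusted p up to 0.16 (limma). FAMT-L had 0.380 and 0.350 FPKM in AtC3H3 OX, against 3.60 and 2.09 FPKM in AtC3H26 OX, and lost its call without either AtC3H3 OX library, with adjusted p up to 0.13 (limma).

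Some of the largest fitted differences came from very short transcripts. Of the tested genes, 31 were listed at 0 in both libraries of a line, and 19 of these were called higher and 10 lower. Plastid tRNA genes were among them: trnY had 2128 and 1823 FPKM in AtC3H3 OX, against a listed 0 in both AtC3H26 OX libraries, and trnH was listed at 0 in both AtC3H3 OX libraries and had 11603 and 7498 FPKM in AtC3H26 OX. Between the WT sets the same genes were also listed at 0 in some libraries, and no fold is given for them. Genes shorter than 200 bp numbered 125 of those tested, and 15 of them were called higher and 8 lower.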

How the data were processed

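The authors sequenced mRNA on a HiSeq X10 with a directional kit, aligned reads with TopHat to TAIR10 and deposited FPKM values from Cufflinks. Quantile normalization in edgeR is named in the study's methods, and the versions are not given in the sources used here. Of 37980 rows, 218 without a name were all 0, and 37703 (99.27%) were matched to RefSeq genes of TAIR10.1, used for names and gene order only. Here values were tested as log2(FPKM + 1) in limma 3.58.1 (R 4.3.3) with an intensity trend and Benjamini-Hochberg adjustment over all genes that reached 1 FPKM in 2 or more of the compared libraries. The line difference with NaCl, the interaction and the WT sets were fitted alike. With 2 libraries a group, an exact two-sided permutation test cannot go below p = 0.333, so none was used. Python 3.11.15, pandas 2.3.3, numpy 2.4.6 and matplotlib 3.10.9 made the tables and plots, and the fits were tested on simulated data. Genes named were both paralogs, the members of 23 gene lists, the 15 called genes a direction with the largest difference, genes within 2 places of these and of PI and DIN10, and up to 10 genes a direction called in both treatments. AT5G20290 and the other genes at 3 to 6 places from PI were named after their values were seen. The members and lists were chosen with earlier results of these data known. Alternatives covered the pseudocount, filter, scaling, trend, a fit of all 14 libraries, the replicate number as a block and each library left out.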

Additional observations from a re-analysis of the deposited data

Results flagged for a closer look

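For 53 of the genes described, the line difference untreated and the line difference with NaCl themselves differed, by the interaction test in limma at an adjusted p under 0.05. The values below are the untreated difference minus the NaCl difference, on the log2 scale, each over 2 libraries of each line in each treatment. Because salt-treated AtC3H3 OX libraries pool several exposure times, the values do not refer to a single time in salt. No explanation was tested for any of them.

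Among touch and wound genes the interaction was WRKY40 (2.63), ERF105 (2.78), SZF1 (2.69), ERF104 (2.26), WRKY33 (2.14), STZ (2.00), ERF6 (1.68), ERF5 (1.66), TCH4 (1.34), TCH3 (1.02) and TCH2 (0.74), and it was negative for CBF3 (-0.88). It was also positive for DIC2 (2.70), AT1G07135 (2.46) and ACS6 (2.02). Among phosphate genes it was negative throughout, for AT4 (-1.48), MGD2 (-1.47), IPS1 (-1.35), SPX3 (-1.30), PHT1;4 (-1.18), PAP17 (-1.15), SQD2 (-0.94), PHT1;1 (-0.89), SPX1 (-0.86) and SQD1 (-0.60) and likewise for PEPC1 (-1.17). With NaCl, SPX3 had 0 and 0.0759 FPKM in AtC3H3 OX, against 0.293 and 0.955 FPKM in AtC3H26 OX. PEPC1 had 0.199 and 0.311 FPKM in AtC3H3 OX, against 2.01 and 1.89 FPKM in AtC3H26 OX with NaCl. At such levels log2(FPKM + 1) understates ratios, so the interactions of SPX3 and PEPC1 do not show that the ratio between lines shrank.

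Among genes of sugar starvation and nitrate it was positive for BT2 (2.13), bZIP1 (0.89), KMD1 (0.83), TPS8 (0.63), LBD38 (0.55), ASN1 (0.54), SEN1 (0.53) and TPS11 (0.29) and negative for DIN10 (-0.87). Among glucosinolate and jasmonate genes it was negative for MYB34 (-0.69), CYP79B2 (-0.55), CYP79F1 (-0.46), CYP83B1 (-0.28), AOC1 (-0.98), AOC3 (-0.76) and JAZ10 (-0.61) and positive for LOX4 (1.06) and MYB51 (0.96).

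Of the remaining genes, it was positive for BCB (1.57), AT4G03005 (1.04), AT4G39675 (1.21), WRKY70 (1.56), XTH19 (0.80), HSP17.6A (1.81) and HSFB2A (1.04) and negative for FAMT-L (-1.54) and NRT1.5 (-0.45). AT4G03005 was lower in AtC3H3 OX in both treatments, by more with NaCl.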

How the results depend on the processing

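The 80 tested genes with statistics kept their direction under every alternative run, and 25 of them lost their call in at least 1 alternative, 15 of these only with a library left out. For the untreated lines, genes higher (1120) and lower (630) in AtC3H3 OX numbered 720 and 404 with no filter on low values and 479 and 331 without an intensity trend. They numbered 195 to 1300 and 134 to 547 with a library left out, a fit in which the lone sample is assumed to vary like the other group. Genes beyond 2-fold (166 higher and 110 lower) numbered 74 and 35 with a pseudocount of 5, and 106 to 225 and 72 to 126 with a library left out. With NaCl, 753 and 340 became 254 and 118 with no filter and 4 to 489 and 8 to 149 with a library left out. Positive and negative interactions (781 and 753) numbered 281 to 689 and 233 to 531 with a library left out. In WT set 2 against set 1, 556 higher and 1449 lower became 272 and 878 with no filter, 190 to 742 and 632 to 1474 with a library left out, and 869 higher with quantile normalization. CYP83A1 passed the test only with quantile normalization. The cause of these changes was not tested.

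With the replicate number as a block, 771 genes were higher and 417 lower untreated, and 366 and 141 with NaCl. The labels tie the numbers to no shared culture, and deviations of same-numbered libraries correlated by 0.04 untreated and -0.02 with NaCl across genes, so the numbers were not treated as pairs. Depth is known only in relative terms, so precision at low FPKM cannot be stated, and 2 libraries a group limit every test.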
